A study of Mus musculus with 170 samples.

Results

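Annexins are cytosolic proteins that bind acidic membrane lipids when calcium rises, and several of them pair with small calcium-binding proteins of the S100 family. The 10 genes described here are 8 annexins (Anxa1, Anxa2, Anxa3, Anxa4, Anxa5, Anxa6, Anxa7 and Anxa11) and 2 S100 partners, S100a10 and S100a11, out of 40549 rows in the expression table. The group was chosen by the higher level of Anxa2 in mutant cells, seen earlier in these same data. The difference between genotypes is therefore given as a description of the family and not as an independent finding.

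The data are Smart-seq2 transcript levels of single cells from the ventricles of E9.5 C57BL/6 mouse hearts, sequenced in 2 batches. Control embryos, labelled wild type, carried Dgcr8 loxP/loxP and Rosa26 mT/mG/+ without Cre. Conditional knockout (cKO) embryos carried the same floxed Dgcr8 alleles and membrane reporter together with Mesp1 Cre/+, and are labelled Mesp1Cre/+; Dgcr8-/-. Mesp1-driven Cre acts only in the Mesp1 lineage, and cKO cells without reporter recombination had been removed by the authors. There were 35 and 39 control cells in batches 1 and 2, or 74 in all, and 35 and 34 cKO cells, or 69 in all. No label names an embryo or litter, so each genotype was 1 sample and no test was possible. SDs describe the scatter across cells, and the 95% interval given with a share (exact, Clopper-Pearson) reflects counting error alone.

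Anxa2 binds S100A10 as a heterotetramer that gathers plasminogen and its activator at the cell surface, a complex best known from endothelial cells. Anxa1 pairs with S100A11, and Anxa1, Anxa2, Anxa5 and Anxa6 are known to gather at breaks in the plasma membrane. Dgcr8 is the partner of Drosha in the complex that cuts microRNA hairpins from their primary transcripts. MicroRNAs find their targets mostly through the seed, bases 2 to 8 of the mature strand, which pairs with sites in the 3′UTR.

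Cells were classed by markers that include none of the 10 genes. The cardiomyocyte-like (CM-like) class held 94 cells, 27 control (19 and 8 by batch) and 67 cKO (33 and 34), and met all 15 cardiomyocyte markers. The endothelial-like class held 22 control cells and no cKO cell, and met 12 of 13 endothelial and 5 of 14 mesenchymal markers. A class of 13 control cells stayed unnamed, since it met 10 of 14 mesenchymal and 6 of 6 epicardial markers. Another 5 control cells were erythroid-like, and 9 cells in a cluster led by mitochondrial transcripts were kept apart.

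Because Dgcr8 loss removes most microRNAs, seed matches were searched in the 3′UTRs of the 10 genes, taken from the longest annotated 3′UTR of each gene. The mature sequences of 20 microRNAs of the embryonic heart, with 18 different seeds, came from RefSeq (GRCm38.p6). Of 26 names sought, miR-143-3p, miR-378a-3p, miR-30d-5p, miR-145a-5p, miR-532-5p and miR-151-3p had no entry. Other heart microRNAs were not searched, among them miR-133a-3p and miR-1a-3p, the latter the most abundant in the study's E9.5 hearts. An absence of matches therefore does not cover them. The search found matches in 5 of the 10 genes. The seed of miR-148a-3p was matched by Anxa3, Anxa4 and S100a11, and 12.6% of 20968 genes with a 3′UTR held that match. Anxa7 held matches to miR-218-5p, to miR-30a-5p and miR-30c-5p, which share a seed, and to miR-370-3p, and Anxa11 held one to miR-351-5p. The microRNA and its matches are shown because they divide the family, with the seed or its match in capitals.
mmu-miR-148a-3p: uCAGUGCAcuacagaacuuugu
Anxa3 site: ccttcacactTGCACTGtggtgctccc
Anxa4 site: ttcatttttcTGCACTGctattaacat
S100a11 site: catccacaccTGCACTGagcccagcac
mmu-miR-541-5p: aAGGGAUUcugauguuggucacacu
The sites begin at base 633 of 882 in the 3′UTR of Anxa3, 68 of 924 in Anxa4 and 58 of 140 in S100a11. The seed of miR-541-5p, a microRNA that the study followed up, was matched by 8.03% of all genes and by none of the 10. The 3′UTR of Anxa2, 290 bases long, matched none of the 18 seeds, nor did those of Anxa1, Anxa5, Anxa6 and S100a10. A match is a description of letters and not a tested target.

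Promoters of 7 of the 10 genes were found in the RefSeq table (GRCm38.p6; none for Anxa3, Anxa6 and S100a10), each 250 bases before to 50 after a transcript start. Searched on both strands, the AP-1 motif TGANTCA occurred in Anxa2 and S100a11 alone among these genes, and in 7.81% of 32851 promoters. Anxa2 held it once, 95 bases before the start, and S100a11 held it at 136 and 38 bases before the start. The HIF core, ACGTG or GCGTG, occurred in 43.8% of the same 32851 promoters and in those of Anxa2, Anxa4, Anxa5, Anxa7, Anxa11 and S100a11. In S100a11 its 2 matches are 1 palindrome read on both strands. The TEAD motif GGAATG (14.7% of promoters) was found among these 7 genes only in Anxa1, which was near absent from CM-like cells. The GC box GGGCGG (35.7% of promoters) occurred in Anxa2, Anxa4, Anxa7, Anxa11 and S100a11. Both promoters are printed because these genes stood at least 1 log2 unit higher in cKO CM-like cells of both batches, with AP-1 and HIF-core matches in capitals.
Anxa2, chr9:69453433-69453732, plus strand: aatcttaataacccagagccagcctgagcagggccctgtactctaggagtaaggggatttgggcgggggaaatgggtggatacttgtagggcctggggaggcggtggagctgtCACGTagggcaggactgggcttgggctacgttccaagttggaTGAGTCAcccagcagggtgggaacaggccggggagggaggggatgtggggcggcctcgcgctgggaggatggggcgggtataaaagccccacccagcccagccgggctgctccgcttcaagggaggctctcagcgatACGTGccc
S100a11, chr3:93520246-93520545, plus strand: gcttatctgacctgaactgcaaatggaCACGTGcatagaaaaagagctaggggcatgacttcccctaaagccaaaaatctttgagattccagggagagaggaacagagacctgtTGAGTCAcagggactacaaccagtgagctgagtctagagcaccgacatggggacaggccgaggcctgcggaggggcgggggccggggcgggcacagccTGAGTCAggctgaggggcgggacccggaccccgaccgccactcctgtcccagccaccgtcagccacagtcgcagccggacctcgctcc

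Whether the higher level of Anxa2 is shared by its relatives was examined in CM-like cells. Levels are log2(TPM + 1), where TPM is a transcript abundance corrected for transcript length and scaled to a fixed total per cell, and a difference is the cKO mean minus the control mean. A gene was called higher or lower at a difference of at least 1 log2 unit. Among 15071 genes with TPM above 0 in more than 10 CM-like cells, 7.19% were called higher with the batches pooled and 2.69% in both batches. Of the 10 genes, 9 passed that filter, 8 were called higher with the batches pooled and 4 in both batches, namely Anxa2, Anxa3, Anxa6 and S100a11. The family was chosen on this contrast, so nothing is read from these shares. The median difference was 1.40 over the 9 genes and 0.05 over all genes that passed, and all 9 differences were above 0 in both batches. In batch 2 this rested on 1 of the 8 control cells, which had 3805 detected genes and stood at 0 for Anxa3, Anxa4, Anxa5, Anxa6, Anxa7 and S100a10. Without it the batch 2 differences of Anxa5 and S100a10 were below 0, and Anxa2, Anxa3 and S100a11 were the genes still called in both batches. The pooled count of 8 fell to 4 with a pseudocount of 10 and to 6 with mean TPM or with equal weight for each batch. By batch, the median over all genes was 0.17 and −0.20.

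**Figure D1:**
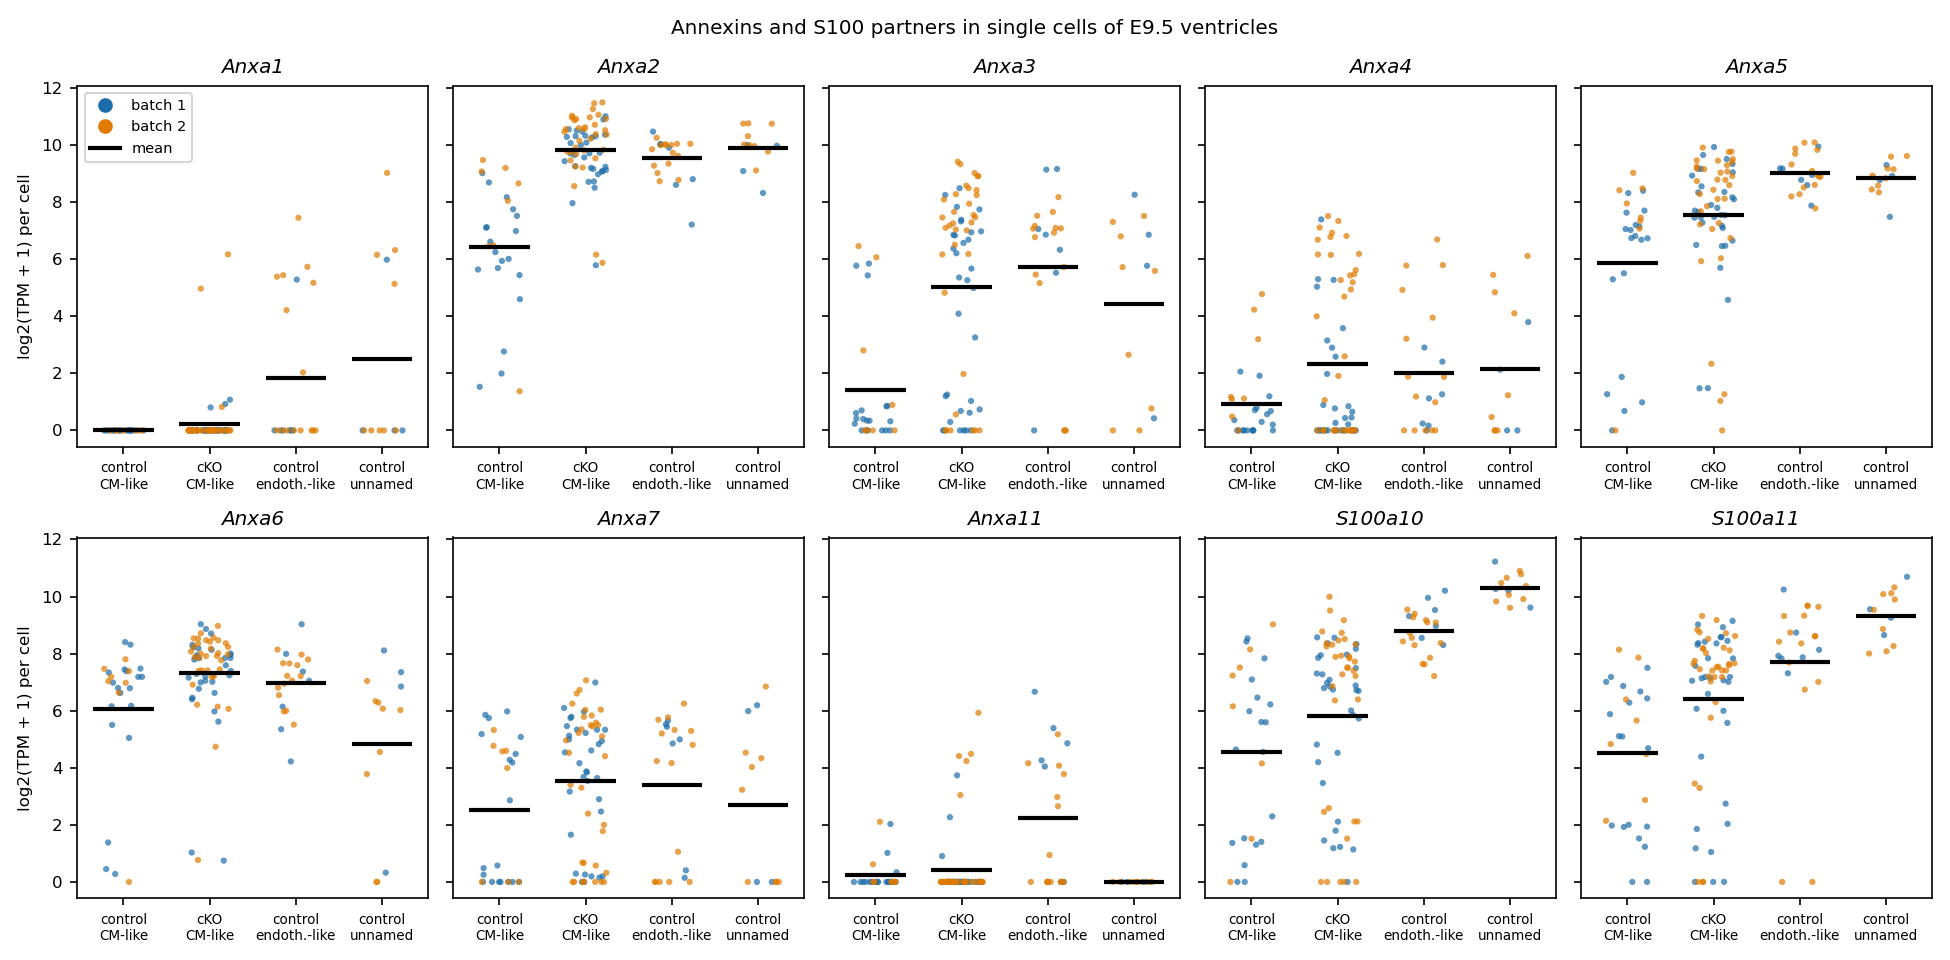
Level of each of the 10 genes, as log2(TPM + 1) on the vertical axis, in single cells of 4 classes: control CM-like (27 cells), cKO CM-like (67), control endothelial-like (22) and the unnamed control class with mesenchymal and epicardial markers (13). Points are cells coloured by batch and bars are means. Anxa2 shifts as a whole from a control mean of 6.43 to a cKO mean of 9.83, while Anxa3 is detected in 50 of 67 cKO cells against 6 of 27 control cells.

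Anxa2 (chromosome 9, 69453620 to 69491795, GRCm38) reached a TPM of 1, the level taken as detected, in all 27 control and all 67 cKO CM-like cells. In control CM-like cells its level ranged from 1.37 to 9.47, with a median of 6.62. In cKO CM-like cells it ranged from 5.79 to 11.49, with a median of 10.07. The ranges overlapped, but 47 of 67 cKO cells stood above the highest control cell and 8 of 27 control cells below the lowest cKO cell. The mean was 6.43 ± 2.31 (SD across 27 control cells) against 9.83 ± 1.15 (67 cKO cells), a difference of 3.41 log2 units. Within batch 1 the difference was 3.53 and within batch 2 it was 2.74, or 1.89 to 3.04 when each control cell of batch 2 was left out in turn. The scatter was wider in the control, where the lowest cells lay far under the median.

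Anxa3 (chromosome 5, 96793339 to 96845966), an annexin linked to blood vessel formation, differed mainly in how many cells reached a TPM of 1. At a TPM above 0 the counts were closer, at 17 of 27 control and 55 of 67 cKO cells, so many control cells held it at a low level. It was detected in 6 of 27 control CM-like cells (22.2%, interval 8.62 to 42.3) and in 50 of 67 cKO cells (74.6%, 62.5 to 84.5). Among cells with a TPM of at least 1 the mean level was 5.40 in the control and 6.70 in the cKO. Control cells ranged from 0 to 6.46 with a median of 0.34, and cKO cells from 0 to 9.41 with a median of 6.57. The difference of means was 3.62, with 2.92 in batch 1 and 3.94 in batch 2. In the cKO 17 cells remained below detection, so the gene was not shared by all cKO cells as Anxa2 was.

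Anxa5 and Anxa6 were detected in most CM-like cells of both genotypes. Anxa5 (chromosome 3, 36448923 to 36475894), the annexin used to stain exposed phosphatidylserine, ranged from 0 to 9.03 in control cells (median 7.06) and from 0 to 9.93 in cKO cells (median 8.11). Its difference of 1.66 came from 2.02 in batch 1 and 0.66 in batch 2, so it was called in batch 1 alone. Without the control cell of fewest detected genes the batch 2 difference of Anxa5 was −0.33, from a control mean of 7.96 and a cKO mean of 7.63. Anxa6 (chromosome 11, 54979108 to 55033445), a double-length annexin abundant in heart, ranged from 0 to 8.40 in control cells (median 6.98) and from 0.75 to 9.03 in cKO cells (median 7.84). Its difference was 1.27, with 1.16 in batch 1 and 1.23 in batch 2. Without that same control cell the batch 2 difference of Anxa6 was 0.33. After rescaling each cell by the median ratio of commonly detected genes, the batch 1 difference of Anxa6 was 0.72 and its call in both batches was lost as well. Both genes overlapped widely between genotypes: 20 of 67 cKO cells exceeded the highest control cell for Anxa5 and 11 for Anxa6.

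Anxa4 and Anxa7 were low in CM-like cells. Anxa4 (chromosome 6, 86736840 to 86793584), a membrane-binding annexin of secretory epithelia, was detected in 9 of 27 control cells and 30 of 67 cKO cells. The direction of these shares was not the same in both batches. Detection was 3 of 19 control and 9 of 33 cKO cells in batch 1, and 6 of 8 and 21 of 34 in batch 2. At a TPM above 0 the pooled counts were 17 of 27 and 38 of 67. Where Anxa4 was detected its mean level was 2.31 in the control and 5.03 in the cKO. Over all cells its mean was 0.92 in the control and 2.32 in the cKO, with differences of 0.80 in batch 1 and 1.34 in batch 2. The highest control cell stood at 4.78, and 20 of 67 cKO cells stood above it. Anxa7 (chromosome 14, 20455260 to 20480133), named synexin for its part in granule fusion, was detected in 14 of 27 control cells and 49 of 67 cKO cells. Its means were 2.53 and 3.54, with differences of 1.28 in batch 1 and 0.54 in batch 2, the latter 0.12 without the control cell of fewest detected genes. Where Anxa7 was detected its mean level was 4.78 in the control and 4.77 in the cKO, so the genotypes differed in the share of cells with a TPM of at least 1.

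Anxa1 and Anxa11 did not share the pattern. Anxa1 (chromosome 19, 20373428 to 20390944), the annexin known for anti-inflammatory signalling, was detected in 0 of 27 control cells, so that a share up to 11.1% is possible, and in 3 of 67 cKO cells (4.48%). It did not pass the filter on low values. Anxa11 (chromosome 14, 25842156 to 25886804), which tethers RNA granules to lysosomes, was found in 3 of 27 control cells and 7 of 67 cKO cells, and its means were 0.23 and 0.43. For both genes the median cell of either genotype was at 0.

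S100a10, the partner of Anxa2, was higher by less than Anxa2 and not in the same way in both batches. S100a10 (chromosome 3, 93555080 to 93564643) ranged from 0 to 9.02 in control CM-like cells with a median of 5.59, and from 0 to 9.99 in cKO cells with a median of 6.97. Only 3 of 67 cKO cells exceeded the highest control cell, so the ranges were almost the same. Its mean was 4.56 ± 3.05 against 5.81 ± 2.99, a difference of 1.24, with 1.46 in batch 1 and 0.50 in batch 2. Without the control cell of fewest detected genes the batch 2 control mean was 6.25 against 5.97 in the cKO, a difference of −0.28, and without another control cell it was −0.06. The direction for S100a10 therefore held in batch 1 and was not settled in batch 2. Detection was 23 of 27 control cells (85.2%, 66.3 to 95.8) and 61 of 67 cKO cells (91.0%, 81.5 to 96.6).

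S100a11 (chromosome 3, 93520488 to 93526287), the partner of Anxa1, ranged from 0 to 8.14 in control cells (median 5.10) and from 0 to 9.32 in cKO cells (median 7.42). Its mean was 4.51 ± 2.53 against 6.41 ± 2.79, a difference of 1.91, with 1.78 in batch 1 and 1.56 in batch 2. Detection hardly differed, at 25 of 27 and 61 of 67 cells, so the level within expressing cells carried the difference. A processed pseudogene of S100a11 is annotated, so its TPM is uncertain where reads could be divided between the copies.

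**Figure D2:**
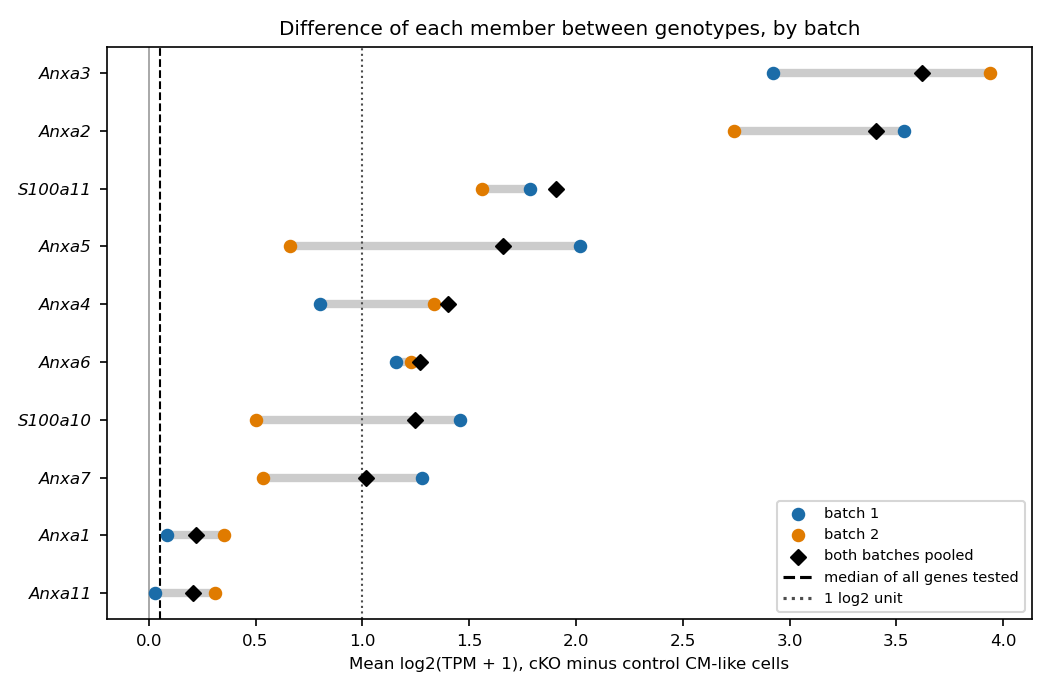
Difference of each gene (cKO minus control CM-like cells, mean log2(TPM + 1), horizontal axis), pooled (diamonds) and within batch 1 and batch 2 (circles). The dashed line is the median of all genes that passed the filter (0.05) and the dotted line marks 1 log2 unit. Anxa2 and Anxa3 lie apart from the rest in both batches, whereas S100a10 is at 1.46 in batch 1 and 0.50 in batch 2, the latter below 0 without 1 control cell.

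Other measures differed between the same cells. In CM-like cells the mitochondrial share of TPM had a median of 6.30% in the control and 3.00% in the cKO. The median number of detected genes was 8458 in control and 9845 in cKO cells of batch 1, and 9704 and 7765 in batch 2, so the genotypes differed in opposite directions in the batches. With cells centred on their batch mean, Anxa2 had a Pearson r with the number of detected genes of 0.71 over the 27 control cells and 0.29 over the 67 cKO cells. Xist, transcribed from the inactive X chromosome, was found in none of 27 control cells but in 64 of 67 cKO cells of this class, and the Y-linked Ddx3y in 18 of 27 and 0 of 67. Sex and genotype therefore cannot be told apart in these cells. Dgcr8 itself was found in 14 of 27 control cells and 21 of 67 cKO cells. The part of these differences in the annexin levels was not tested.

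Summed markers of other cell classes were low in the median CM-like cell of both genotypes, but some cells stood far higher. The 13 endothelial markers summed to a median of 8.04 in control (range 1.49 to 21.1) and 7.99 in cKO CM-like cells (2.32 to 22.8), against 83.6 in endothelial-like cells (45.4 to 99.9). None of the 13 was called higher in the cKO with the batches pooled, against 7.19% of all genes that passed the filter. Pecam1, which is among the 13, was reported by the paper as upregulated in single cKO cardiomyocytes. The paper used another measure, a rank-sum test with a fold-change cut-off on mean levels. The 15 cardiomyocyte markers summed to a median of 51.5 in endothelial-like cells (25.5 to 145.6). The highest of these cells lay within the control CM-like range of 139.7 to 164.3. The 14 mesenchymal markers summed to 9.25 (1.41 to 33.9) in control and 11.5 (2.81 to 22.2) in cKO cells, with Lum at 0 in both and Postn at 0 in the cKO, and 1 of them was called higher in the cKO. The 6 epicardial markers summed to 4.85 (0.38 to 30.03) and 6.16 (0 to 17.9), and the 7 erythroid markers to 2.07 (0 to 23.8) and 4.49 (0 to 22.3). Only 12 of 27 control and 17 of 67 cKO CM-like cells had at most 1 marker of these 3 tissue classes above 3 log2 units, Vim aside. In those cells the difference of Anxa2 was 4.19, with 1 of the control cells in batch 2.

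The partners were next compared within single cells. Anxa2 and S100a10 were detected together in 23 of 27 control CM-like cells and 61 of 67 cKO CM-like cells. In the control cells with both, the log2 ratio of Anxa2 to S100a10 ranged from −2.22 to 7.15 with a median of 1.07, and Anxa2 was the higher in 19 of 23. In the cKO the ratio ranged from −2.17 to 9.36 with a median of 2.72, and Anxa2 was the higher in 60 of 61. The mean ratio was 1.63 ± 2.52 against 3.58 ± 2.37. Within batch 1 the mean ratio was 1.45 in control and 3.92 in cKO cells, and within batch 2 it was 2.05 and 3.21. In 22 of 22 endothelial-like cells both transcripts were detected, with a ratio of 0.76 ± 0.96, and in the unnamed class S100a10 was the more abundant, with a ratio of −0.39 ± 0.81 over 13 cells. The ratio in cKO CM-like cells was thus above that of each of these control classes, and the ranges overlapped.

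**Figure D3:**
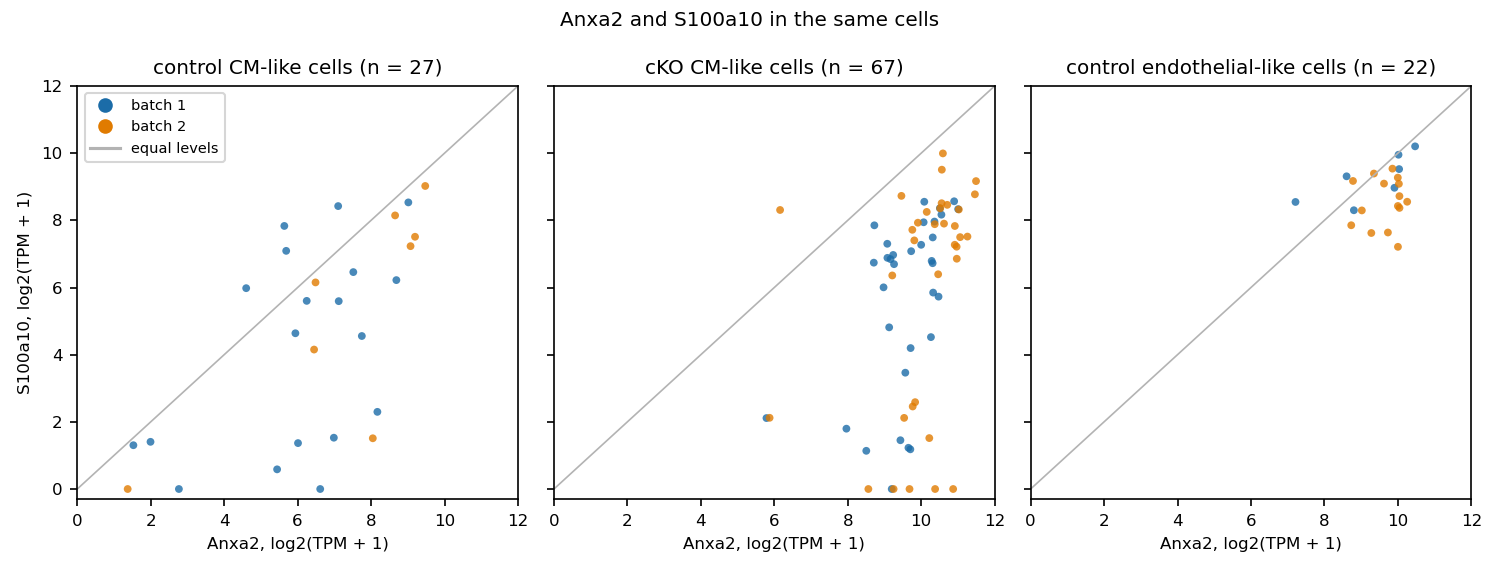
S100a10 (vertical axis) against Anxa2 (horizontal axis), both as log2(TPM + 1), in control CM-like (n = 27), cKO CM-like (n = 67) and control endothelial-like cells (n = 22). Points are cells coloured by batch and the line marks equal levels. Most cKO cells stand at Anxa2 levels above 8 with S100a10 anywhere from 0 to 9.99, whereas the endothelial-like cells gather near the line.

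Anxa1 was detected together with S100a11 in 0 of 27 control and 3 of 67 cKO CM-like cells, in 8 of 22 endothelial-like cells and in 5 of 13 cells of the unnamed class. S100a11 was the higher of the pair in 7 of the 8 endothelial-like cells. In CM-like cells S100a11 was therefore transcribed almost without its partner Anxa1.

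Control cells of other classes gave the reference for the family. Endothelial-like cells were at least 1 log2 unit above control CM-like cells for 22.7% of 13130 genes that passed the filter in these classes, and for 10.5% in both batches. Of the 10 genes, 8 were called higher in endothelial-like cells (7 of the 9 that passed the filter, and Anxa1), and 6 in both batches: Anxa2, Anxa3, Anxa5, Anxa11, S100a10 and S100a11. The median gap was 2.55 over the 10 genes, and 0.29 over all genes that passed. S100a10 was among the markers that the study used for endothelial and mesenchymal cells, but it took no part in the classes used here.

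Anxa2 stood at 9.54 ± 0.75 in endothelial-like cells, with a range of 7.21 to 10.47. In order, its mean was 6.43 in control CM-like cells, 7.25 in the 5 erythroid-like cells, 9.54 in endothelial-like cells, 9.83 in cKO CM-like cells and 9.91 in the unnamed class. The last 3 of these means differed by less than the SD across cells of any of them, and so did the first 2. Thus the pooled mean of Anxa2 in cKO CM-like cells lay 0.30 above the endothelial-like mean and below that of the unnamed class. In batch 1 it was above both, at 9.58 against 9.29 and 9.34. Single cKO CM-like cells reached 11.49, above the highest cell of the unnamed class at 10.76.

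S100a10 differed from this. Its mean was 4.56 in the control CM-like class, 5.81 in the cKO CM-like class, 6.80 in erythroid-like cells, 8.78 ± 0.78 in endothelial-like cells and 10.30 ± 0.50 in the unnamed class. The cKO CM-like mean was 2.97 below that of endothelial-like cells, and the first 3 means in this order differed by less than their SDs. S100a11 followed the same order between the larger classes, at 4.51, 6.41, 7.72 and 9.33.

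Among the annexins, Anxa5 was at 9.03 ± 0.69 in endothelial-like cells, which was 1.49 above the cKO CM-like mean. Anxa3 was at 5.72 ± 2.94 in endothelial-like cells against 5.04 ± 3.37 in cKO CM-like cells, and was detected in 18 of 22 and 50 of 67. Anxa4, Anxa6 and Anxa7 stood in cKO CM-like cells at or slightly above the endothelial-like mean, by 0.30, 0.36 and 0.14. Anxa6 was lower in the unnamed class, at 4.82 ± 2.91, and in the 5 erythroid-like cells, at 4.08 ± 3.58, than in control CM-like cells, by less than the SDs. Anxa11 was detected in 11 of 22 endothelial-like cells and in 0 of 13 cells of the unnamed class, so that a share up to 23.1% is possible. In all, 6 of the 10 genes had a lower mean in cKO CM-like than in endothelial-like cells.

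Summed over the family, the median cell held 518 TPM in the control CM-like class (7.90 to 2090), 2029 in the cKO CM-like class (62.4 to 5665), 2735 in endothelial-like cells (1496 to 4015) and 3417 in the unnamed class (2127 to 6421). Anxa2 made up 29.1% of the family's TPM in the control CM-like class and 50.2% in the cKO, against 30.8% in endothelial-like cells. The family's make-up in cKO CM-like cells was thus weighted toward Anxa2. The median cell detected 6 of the 10 genes in control and 7 in cKO CM-like cells, with ranges of 2 to 9 and 2 to 10.

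Across the 67 cKO CM-like cells, centred within batch, the members most like Anxa2 were Anxa5 (r = 0.60) and S100a11 (0.51). Anxa3 followed at 0.43, and S100a10 and Anxa6 both stood at 0.39. Anxa4 and Anxa7 were at 0.31 and 0.23, and Anxa1 and Anxa11 at 0.08 and 0.07. S100a10 was closer to Anxa3 (0.54) and Anxa5 (0.50) than to Anxa2 in these cKO cells. Over the 27 control CM-like cells the r of S100a10 with Anxa2 was 0.59, the highest of the members, with Anxa5 at 0.54. Within each genotype the cells share a per-cell TPM total and differences in depth. Over the cKO cells the r of the number of detected genes was 0.61 with S100a11, 0.52 with Anxa5 and 0.40 with S100a10.

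**Figure D4:**
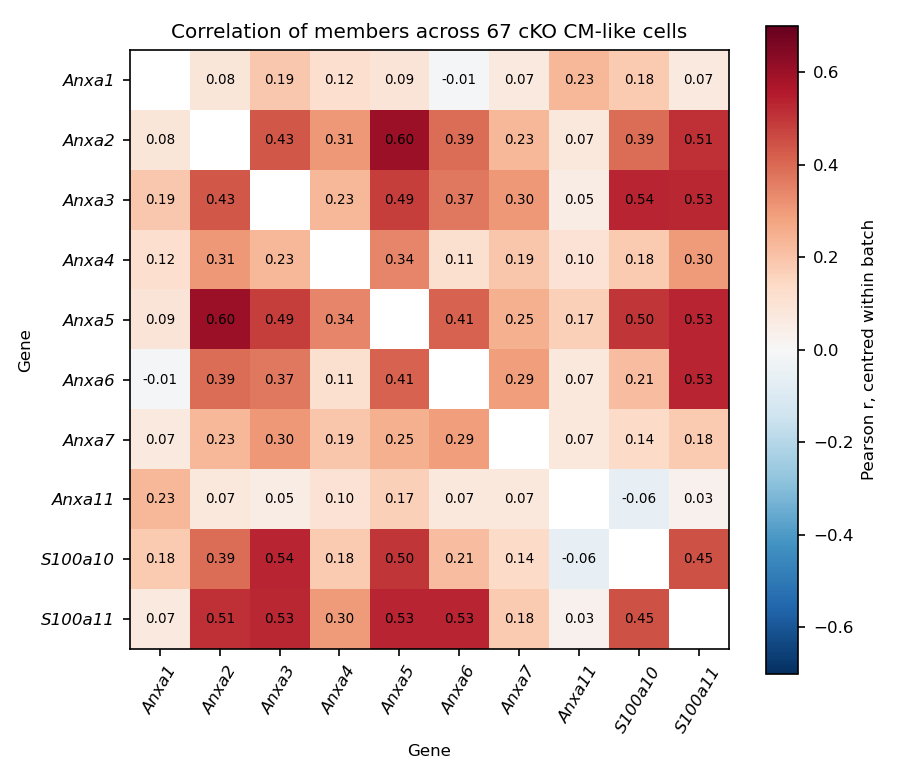
Pearson r between the 10 genes over 67 cKO CM-like cells, from log2(TPM + 1) centred on the mean of each batch, with genes on both axes. Anxa2, Anxa3, Anxa5, S100a10 and S100a11 form a block of values from 0.39 to 0.60, S100a11 also reaches 0.53 with Anxa6, and the values of Anxa1 and Anxa11 do not exceed 0.23.

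The 6 genes with the highest r with Anxa2, among 7969 genes detected at a TPM above 0 in at least 50% of these cells, were none of the family. They were Atp6v0e (0.78), Bsg (0.74), Fam96b (0.72), Alpk3 (0.69), Tpi1 (0.68) and Ldha (0.68). Bsg encodes basigin, the chaperone of lactate transporters, and Tpi1 and Ldha encode enzymes of glycolysis. Alpk3 is a kinase of heart muscle, and Atp6v0e is a subunit of the vacuolar proton pump. Anxa5 ranked 32, S100a11 106, Anxa3 298 and S100a10 461 among the same genes, and the median r of all of them was 0.13. Without the 2 cells farthest from the median of Anxa2, r was 0.65 for Atp6v0e, 0.68 for Bsg, 0.47 for Tpi1, 0.50 for S100a11, 0.43 for Anxa5 and 0.33 for S100a10, so part of the values rested on 2 cells. By Spearman's rho, Bsg (0.68) and Atp6v0e (0.55) stayed above all members, and Anxa5 (0.53) stood above Fam96b (0.52). Anxa4 (0.472), S100a10 (0.467) and S100a11 (0.451) stood above Tpi1 (0.448), Alpk3 (0.447) and Ldha (0.432). The other members, led by Anxa3 at 0.41, stood below all 6 genes.

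The remaining annexins were near absent. Anxa8, Anxa9, Anxa10 and Anxa13 had mean levels of at most 0.47 in CM-like cells of either genotype, and only Anxa9 passed the filter, with a difference of −0.03. Of 13 other S100 genes 4 passed the filter. None was called higher in both batches, and 2 were called lower in both, against 2.71% of all genes that passed. S100a1, the main S100 protein of heart muscle, had a difference of −1.30 (−1.20 in batch 1 and −1.44 in batch 2) with transcripts in 19 of 27 control cells and 40 of 67 cKO cells. S100a13, a carrier in the non-classical release of FGF1, had a difference of −1.50 (−1.14 and −2.08) and was detected in 20 of 27 and 32 of 67. The direction for S100a10 and S100a11 was thus not that of every S100 gene in these cells.

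Among 15 genes of annexin partners and plasma membrane repair, 14 passed the filter, with a median difference of 0.64, which was 0.68 in batch 1 and 0.0023 in batch 2. Only Ahnak was called higher in both batches and only Cav3 lower, against 2.69% and 2.71% of all genes that passed. With the batches pooled 3 were called higher, against 7.19% of all genes that passed. Ahnak, a giant scaffold protein that binds the Anxa2 and S100A10 complex, stood at 2.49 ± 1.54 in control and 3.82 ± 1.68 in cKO CM-like cells, with differences of 1.21 and 1.15 in the batches. After rescaling by the median ratio its batch 1 difference was 0.95. Cav3, the caveolin of muscle, was found in 13 of 27 control cells and 2 of 67 cKO cells, a difference of −2.88 (−1.91 and −4.93). The ferlin Dysf, a central protein of membrane repair in muscle, had a difference of 0.75 and was called in batch 1 alone.

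The plasminogen system, which the Anxa2 and S100A10 complex serves, had no gene called higher, against 7.19% of all genes that passed with the batches pooled. Of its 9 genes 7 passed the filter, so few that nothing is read from that absence. Serpine2, an inhibitor of plasminogen activators and thrombin, was called lower in both batches (−1.05 and −1.75), against 2.71% of all genes that passed. Plat, the activator that the complex binds, was found in 2 of 27 control cells and 9 of 67 cKO CM-like cells, against 21 of 22 endothelial-like cells, where its mean was 6.08 ± 2.07. Plg, plasminogen itself, was listed at 0 in all CM-like cells. Eno1, a glycolytic enzyme that also serves as a plasminogen receptor, was abundant in both genotypes, at 11.26 ± 0.77 and 11.96 ± 0.93.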

How the data were processed

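The members and gene lists were chosen with earlier results of these data known. The authors quantified paired-end Smart-seq2 reads with Salmon against mm10 with GFP and tdTomato added and deposited TPM per gene; the version and the annotation release are not given in the sources used here. They kept cells with over 70% of reads mapped and removed cells whose reporter contradicted the genotype. TPM keeps no depth, so detected genes per cell (2063 to 14139) stand in for it, and the lack of molecular identifiers leaves duplicate reads in. Each of 143 columns matched 1 of 170 labelled samples by title, no columns were identical, and 27 samples were not analysed here. Cells were hand-picked and no doublet caller was run.

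Cells were clustered (Ward, z-scored log2(TPM + 1) of 55 markers, 5 clusters). A cluster was named with 3 or more markers of a class whose mean exceeded that of the remaining cells by 1 log2 unit or more and with detection in most of its cells, and stayed unnamed where a second class met at least 70% of the leading class's share of markers. Differences are means of log2(TPM + 1), whose pseudocount of 1 understates low genes, and the code was tested on simulated data. Named genes outside the family were those with a difference of at least 1 in the same direction in both batches (up to 5 a list), and the 6 with the highest r with Anxa2; Anxa8 to Anxa13, Plat, Plg, Eno1 and Dysf were added after their values were seen. 3′UTRs came from GENCODE vM21 (GRCm38). Python 3.11.15, pandas 2.3.3, NumPy 2.4.6 and SciPy were used.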

Additional observations from a re-analysis of the deposited data

Results flagged for a closer look

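In the 9 cells of the mitochondria-led cluster, which entered no comparison, Anxa2 stood at 9.37 and 9.52 in the 2 cKO cells (mean 9.45) and between 0 and 5.16 in the 7 control cells (mean 1.81), so the genotypes did not overlap. This drew attention because it lies outside the cells compared here and above the control cells. It is no independent support, since the family was chosen by higher Anxa2 in mutant cells of these same data. Mitochondrial transcripts made up 18.6% and 61.4% of TPM in the 2 cKO cells and 4.32% to 61.1% in the control cells. None of the other 9 genes separated the genotypes there: S100a10 was at 1.32 and 3.23 in the cKO cells and reached 8.38 in the control cells. Both cKO cells were from batch 1, and the difference was not tested.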

How the results depend on the processing

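No paired analysis was possible because label numbers stand for individual cells, and nothing was tested. Over 11 alternatives each (pseudocount, mean TPM, equal batch weights, 2 rescalings, 3 other clusterings, cell filters), the pooled differences of the 10 genes kept their direction. The alternative with 6 clusters gave the same 27 control and 67 cKO CM-like cells, so its 10 values repeat the main ones. Of the 110 pooled differences, 109 moved by less than 1 SD across cells, the exception being Anxa1, where the ratio of mean TPM gave 1.36. For all genes but Anxa2 and Anxa3 the difference was itself below that SD, so the count of 109 says little about stability. Anxa2 ranged from 2.57 to 4.35 and S100a10 from 0.79 to 1.43, and Anxa4 from 0.80 to 3.34. The number of genes called higher in both batches ranged from 3 to 6. Anxa2 and Anxa3 were called under every alternative, S100a11 under all but the cells with few markers of other classes, where 1 control cell was left in batch 2. Anxa6 was lost with a pseudocount of 10, with mean TPM, after median-ratio rescaling, in clusters built without the markers (13 control CM-like cells), with at least 6000 detected genes and in the cells with few markers of other classes. Leaving out each control cell of batch 2 in turn, chosen after seeing the data, gave 3 to 5, and batch 2 differences of −0.33 to 0.96 for Anxa5 and −0.28 to 1.01 for S100a10. The pooled count ranged from 4 (pseudocount 10) to 8. At a TPM of at least 10, Anxa2 and S100a10 were detected together in 74.6% of cKO and 62.96% of control CM-like cells, against 91.0% and 85.2% at 1. The small number of control CM-like cells in batch 2, 8, limits every comparison within that batch.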
